A study of Mus musculus with 9 samples.

Results

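The called CTCF and Rad21 binding peaks were followed across 53 imprinted mouse genes grouped into 19 domains. A gene's window was its annotated body in mouse genome build mm9 plus 20 kb either side, and a peak was counted where it overlapped a window by at least 1 bp. Of the 53 genes, 51 had an annotated body, Kcnq1ot1 had a start placed by a single exact match of its RefSeq promoter, and Peg13 was not placed. Kcnq1ot1 lies inside Kcnq1 and Peg13 inside Trappc9 in the RefSeq annotation, so both fell inside windows already counted. The merged windows covered 4.52 Mb.

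Imprinted genes are expressed mainly from the copy inherited from 1 parent. Most lie in clusters, and each cluster is governed by an imprinting control region, a stretch of DNA that carries methylation on either the maternal or the paternal copy. CTCF is a zinc finger protein that binds DNA and blocks or anchors chromatin loops, and its binding is hindered by methylation within its site. Cohesin, of which Rad21 is a subunit, forms those loops and accumulates where CTCF is bound. At H19 and Igf2, CTCF bound to the unmethylated maternal control region separates the Igf2 promoters from enhancers beyond H19, which made this locus the textbook case of a CTCF insulator.

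The peaks came from chromatin immunoprecipitation sequencing of lymphocyte progenitors of RAG-deficient C57BL/6 mice, which cannot rearrange their antigen receptor genes. CTCF was measured in RAG-/-µ+ pre-B cells, which carry a rearranged IgM transgene, and in RAG1-/- pro-B cells cultured with IL7 for 7 days. The mice used for bone marrow were 6 to 14 weeks old and of both sexes. Rad21 was measured in the same pre-B cells, in CD4-CD8- (DN) thymocytes of Rag1-/- mice and in CD4+CD8+ (DP) thymocytes of Rag1-/- mice with a rearranged TCRb transgene, both at 4 to 8 weeks. Each condition was 1 library compared with an input library of the same cells, the pre-B CTCF and Rad21 libraries shared 1 input, and no test between conditions was possible. Transgenic pre-B and DP cells are a genetic stand-in for the normal stages, the IL7-cultured cells had been expanded in vitro, and no CTCF list of thymocytes was analysed. The lists carried no allele information, so a peak could not be given to the maternal or the paternal copy, and they carried no expression with which to check the cell types.

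The imprinted domains held 117 of 42250 pre-B CTCF peaks, 186 of 71080 CTCF peaks of IL7-cultured pro-B cells, 93 of 30488 pre-B Rad21 peaks, 33 of 9701 DN Rad21 peaks and 103 of 36743 DP Rad21 peaks. This was 25.9 pre-B CTCF peaks per Mb against 16.0 per Mb over the genome. For IL7-cultured pro-B CTCF the densities were 41.1 and 26.9 per Mb, and for Rad21 they were 20.6 and 11.6 in pre-B cells, 7.30 and 3.68 in DN cells and 22.8 and 13.9 in DP cells. The windows were drawn around genes while the genome density counts all sequence, and the part of this in the difference was not tested. Gene for gene, the shares of imprinted genes with a peak lay above those of all genes in each of the 5 lists. The 51 genes fell into 33 merged windows, so neighbours shared peaks. Whether the differences exceed counting error was not tested. A peak in the window was found for 44 of the 51 genes in the pre-B CTCF list, or 86.3%, where 75.4% of all 26212 annotated genes had one. In the IL7-cultured list 48 of 51 had a peak against 84.1% of all genes. For Rad21, 37 of 51 had a peak in pre-B cells against 68.2%, 26 in DN cells against 38.7% and 38 in DP cells against 68.7%. The windows of the imprinted genes were also longer, with a median of 65.6 kb against 53.5 kb.

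**Figure D1:**
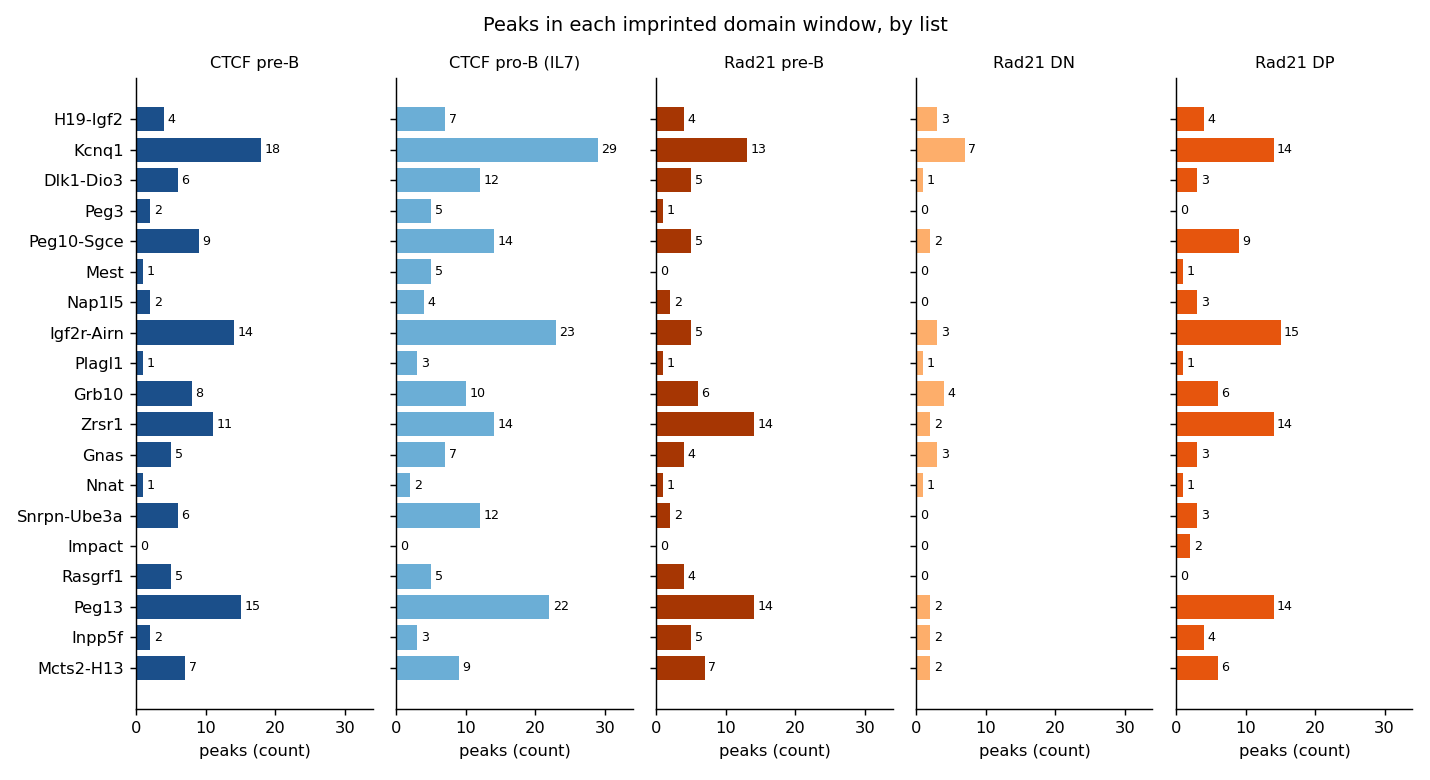
Peaks per imprinted domain (rows) in each of the 5 lists (panels, x axis: count of peaks in the domain's windows). Kcnq1, Igf2r-Airn, Peg13 and Zrsr1 hold the most peaks, while Impact has none outside the DP Rad21 list and Rasgrf1 none in the DN and DP lists.

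Scores grow with the depth of a library, so each peak is given here by its rank, the percent of the same list with a lower score. The 117 pre-B CTCF peaks had a median rank of 50.6% (95% interval of the median 41.6 to 59.3) and the 186 peaks of IL7-cultured cells one of 53.7% (47.5 to 60.2). Both intervals held the list's own middle. The Rad21 peaks had medians of 61.2% (46.7 to 70.3) in pre-B cells, 68.2% (54.0 to 75.5) in DN cells and 57.9% (47.5 to 67.9) in DP cells. Of these, the DN interval alone lay above the middle of its list, and it rested on 33 peaks. Among domain peaks, 28 of the pre-B CTCF, 51 of the IL7-cultured, 31 of the pre-B Rad21, 11 of the DN and 31 of the DP peaks ranked above 75% of their lists.

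**Figure D2:**
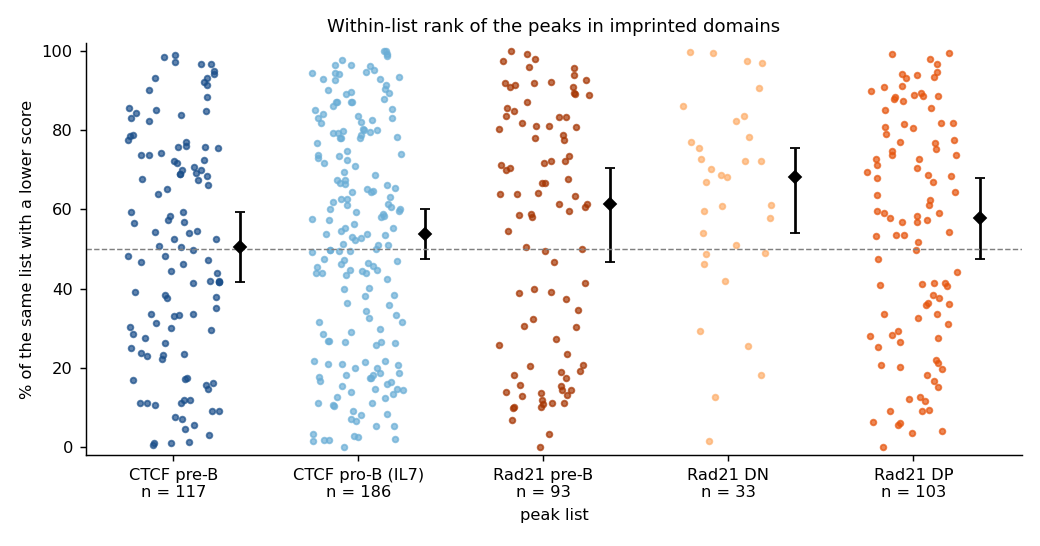
Rank of every domain peak within its own list (y axis: percent of the same list with a lower score; each point is 1 peak), with the median and its 95% interval as a black diamond and bar. The points run over the whole range in each list, and the DN Rad21 median of 68.2% is the one whose interval clears the dashed line at 50%.

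The H19-Igf2 domain showed the pattern for which it is known, with CTCF and Rad21 at the control region upstream of H19 and again upstream of Igf2, on its side away from H19. H19 is a maternally expressed noncoding RNA and Igf2 a paternally expressed growth factor. In the control window, set at 1 to 5 kb upstream of H19, CTCF and Rad21 met at 2 places. The place nearer to H19, chr7:149765828-149767065, was called in all 5 lists. It ranked at 90.1% in the pre-B CTCF list and 73.6% in the IL7-cultured list. For Rad21 it ranked at 90.7% in pre-B, 41.9% in DN and 87.2% in DP cells. The farther place, chr7:149767252-149768358, was called in 4 lists, with ranks of 71.6% and 79.5% for CTCF and 59.5% and 56.9% for pre-B and DP Rad21. DN cells had no peak there. The nearer place was the higher of the pair in the pre-B and DP lists, and the farther one in the IL7-cultured list. A weak peak of the IL7-cultured list alone, chr7:149765050-149765289, ranked at 17.5%.

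The sequence of these peaks held repeated words. On the minus strand GGAATGGT, AGGAACAT and GCTGTGAC each occurred at 3 places, and a word of 20 bases at 2. The 8 bases GGTGGCAG also occurred at 3 places. They were followed up because, among these 8-base words, the 6 bases before them were the most alike. When the window was searched on both strands for those 14 bases with at most 2 mismatches, 4 copies were found on the minus strand, 2 in each of the 2 places, and 1 partial match on the plus strand overlapping the copy at 2621 bp. They are shown because each carries CpG dinucleotides, the bases that are methylated, inside the word itself. Each is written 5′ to 3′ on the minus strand, with the 14 bases in capitals, named by its distance upstream of the H19 start.
2166 bp: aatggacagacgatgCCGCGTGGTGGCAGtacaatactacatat
2621 bp: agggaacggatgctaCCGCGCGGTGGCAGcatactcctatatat
3647 bp: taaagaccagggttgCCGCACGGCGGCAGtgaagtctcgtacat
3891 bp: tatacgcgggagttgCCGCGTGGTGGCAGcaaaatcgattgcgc

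The copies at 2166 and 2621 bp, chr7:149766214-149766227 and chr7:149766669-149766682, lay under the nearer place. Those at 3647 and 3891 bp, chr7:149767695-149767708 and chr7:149767939-149767952, lay under the farther one. They held 2 or 3 CpG within 14 bases. Read with the base before it, each copy at 2166 and 3891 bp was within 2 mismatches of the study's HOMER de novo consensus for CTCF. Read in the same way, those at 2621 and 3647 bp were not. The DN Rad21 peak covered the copy at 2621 bp and not the one at 2166 bp. Over the whole pre-B CTCF list, 693 of 42250 peaks (1.64%) held such a word at least once and 6 held it more than once on a strand. The word was read from the H19 peaks themselves, so these shares are a description. CpG density was 3.43 per 100 bp in the CTCF peaks of the nearer place and 2.54 in those of the farther one.

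Upstream of Igf2, 2 more places were called in all 5 lists. The place at chr7:149857786-149858624 ranked at 74.3% and 68.6% for CTCF in pre-B and IL7-cultured cells. Its Rad21 peaks ranked at 71.1%, 54.0% and 47.5% in pre-B, DN and DP cells. The place at chr7:149861313-149862192 ranked at 59.3% and 55.4% for CTCF and at 70.0%, 59.6% and 28.4% for Rad21. So all 3 DN Rad21 peaks of the domain lay at places that CTCF occupied in both B-lineage lists. IL7-cultured CTCF alone had peaks at chr7:149856967-149857302 upstream of Igf2 (52.3%) and chr7:149741574-149741997 downstream of the H19 start (32.5%). Between the control region and the Igf2 start the gene bodies and their flanks held no peak of any list, although the middle of that interval lies outside the windows.

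**Figure D3:**
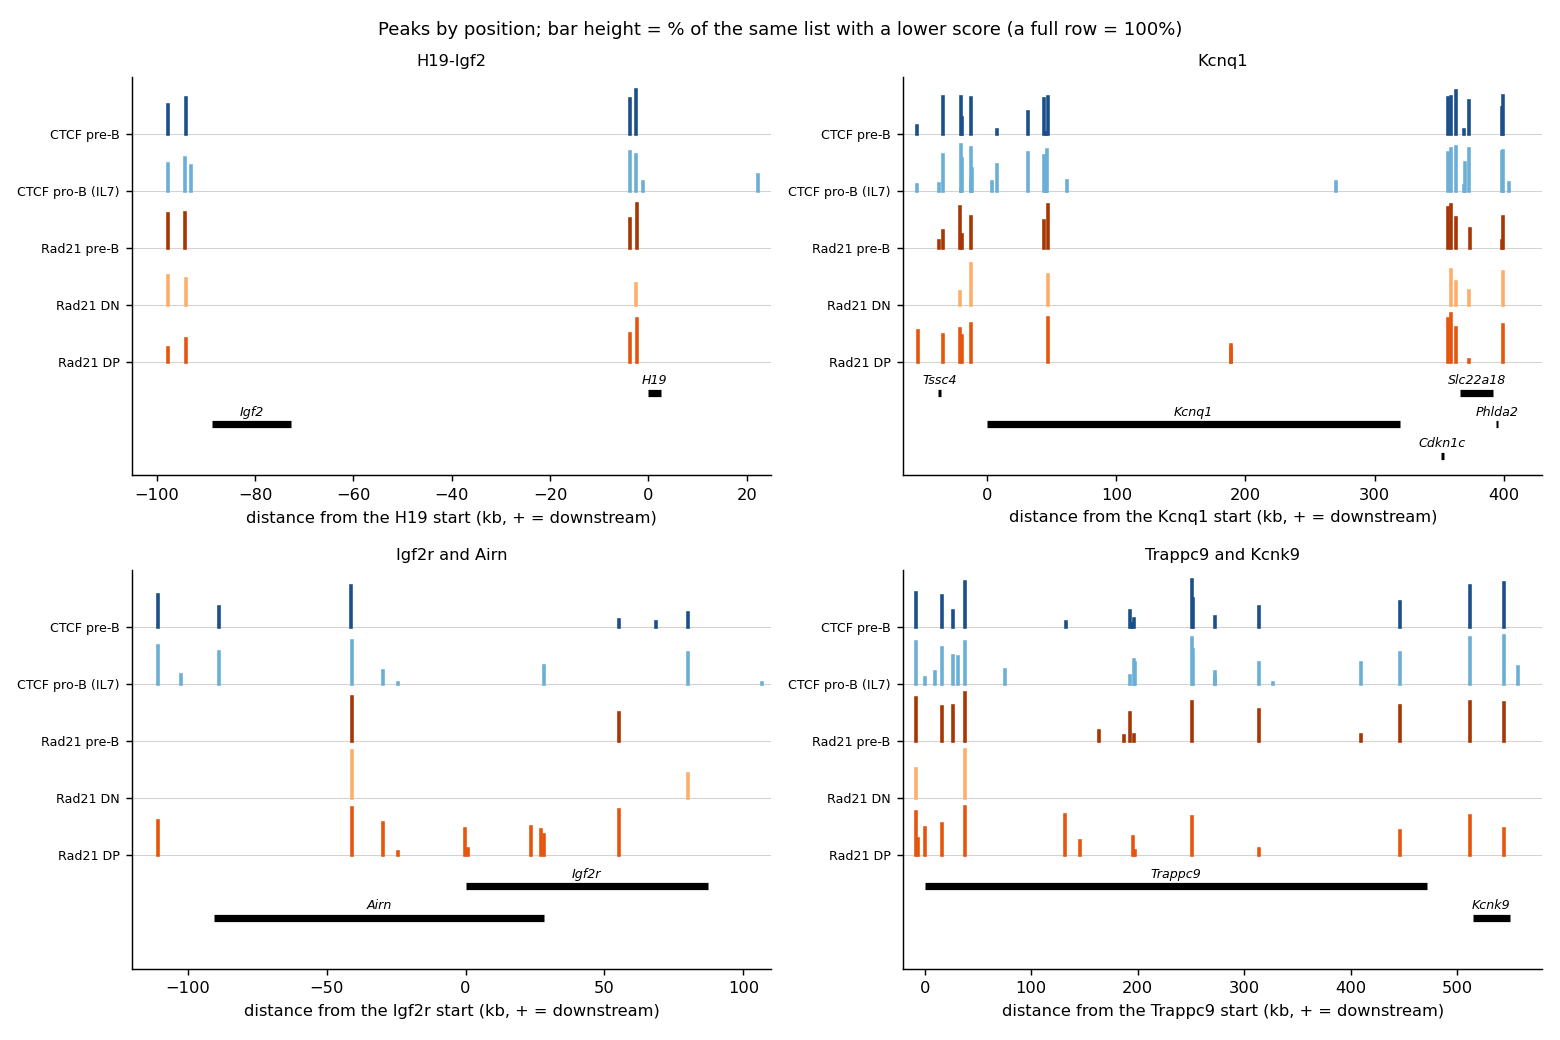
Peaks of the 5 lists (rows) across 4 domains, drawn by distance from the named gene's start (x axis, kb, downstream positive), with bar height giving the rank within the list and black bars giving gene bodies. The H19-Igf2 places called in 4 or 5 lists sit in pairs upstream of each gene. Most Kcnq1 peaks lie on both sides of a 309 kb interval free of pre-B CTCF peaks. DP Rad21 has peaks around the Igf2r and Airn starts that the other Rad21 lists lack.

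Most other control windows held fewer and lower peaks than that of H19. Of the 19 domains 18 had a placed control window, set from textbook positions relative to annotated starts, mostly 2 kb either side of the start of the gene that carries the germline methylation mark. Of these 18, a peak was found in 7 in the pre-B CTCF list, 10 in the IL7-cultured list, 4 in pre-B Rad21, 3 in DN Rad21 and 7 in DP Rad21. For the 15 windows set at starts the counts were 5, 8, 2, 2 and 6. Among all annotated genes 31.5% had a pre-B CTCF peak within 2 kb of a start, 44.1% an IL7-cultured CTCF peak, and 24.3%, 6.47% and 34.7% a pre-B, DN and DP Rad21 peak. With 15 windows, the exact 95% interval of the pre-B CTCF share, 33.3%, ran from 11.8 to 61.6, so no departure from genes in general was detectable. Several of these genes have many annotated starts, which widens their windows.

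Besides H19, the control windows of Gnas and Inpp5f held a peak in all 5 lists. At Gnas, which encodes the stimulatory G protein alpha subunit, the place chr2:174109477-174110026 lay at an annotated Gnas start, within an intron of the antisense transcript Nespas. Its ranks were low in most lists, at 23.5% and 57.5% for CTCF and 11.2%, 12.7% and 16.7% for Rad21. Inside the Gnas gene a pair of higher places followed, chr2:174136203-174136996 and chr2:174137404-174138247. Their Rad21 ranks were 81.7%, 82.3% and 90.9% for the former and 91.3%, 72.2% and 85.1% for the latter in pre-B, DN and DP cells. At Inpp5f, an inositol phosphatase gene, the place chr7:135833458-135834287 in an intron ranked at 82.2% and 92.8% for CTCF and at 95.7%, 68.2% and 85.5% for Rad21. It lay at 1455 bp from an annotated internal start.

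The other control windows held peaks in fewer lists or in none. No list had a peak in the windows of Dlk1-Dio3 (8 to 18 kb upstream of Meg3), Nap1l5, Plagl1, Zrsr1, Snrpn or Mcts2. DP Rad21 alone had peaks at the start of Kcnq1ot1, where they ranked at 27.5% and 33.5%, and at Impact, a regulator of the translation kinase Gcn2, where they ranked at 9.15% and 20.9%. IL7-cultured CTCF alone had peaks at Peg3 (1.88%) and Nnat (16.7%). At Peg10 the peak over the shared start of Peg10 and Sgce ranked at 33.6% and 64.4% for CTCF and 58.3% for DP Rad21, with no pre-B or DN Rad21 peak. At Airn the IL7-cultured CTCF peak ranked at 38.2% and the higher of 2 DP Rad21 peaks at 51.8%. At Mest, 23.0% and 49.2% were the CTCF ranks, and at the Grb10 starts 0.715% and 61.2%, both without Rad21. The Rasgrf1 window, 25 to 35 kb upstream, held a pre-B CTCF peak at chr9:89774517-89774751 (4.54%) and a pre-B Rad21 peak over it (30.8%), while the IL7-cultured peak at chr9:89772585-89772853 (24.7%) lay elsewhere.

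**Figure D4:**
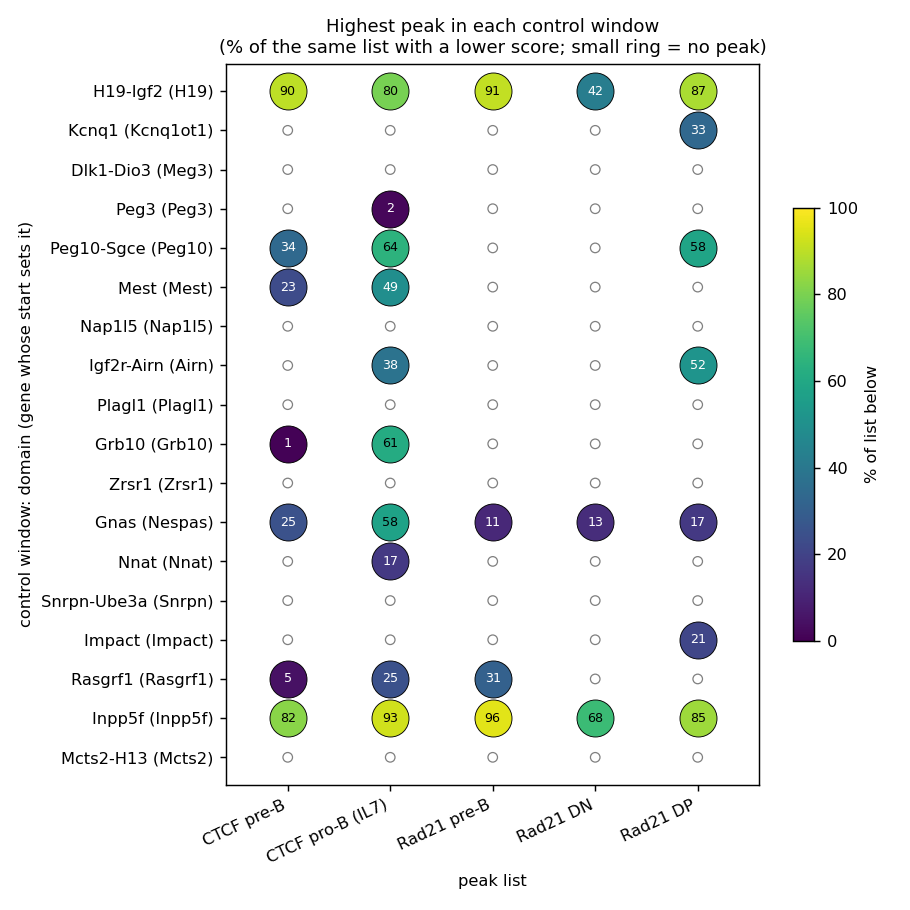
Highest-ranking peak in each of the 18 placed control windows (rows) in each list (columns), as the percent of the same list with a lower score, written in the circle and coloured by the scale. Small rings mark windows with no peak: H19, Gnas and Inpp5f are filled in all 5 columns, while 6 windows are empty throughout.

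The Kcnq1 domain held more peaks than any other in the CTCF lists and in DN cells, with 18 in pre-B CTCF, 29 in IL7-cultured CTCF, 13 in pre-B Rad21, 7 in DN Rad21 and 14 in DP Rad21. Its windows were long, at 516 kb. Per Mb its pre-B CTCF count was 34.9, below Mcts2-H13 (88.4), Zrsr1 (58.6), Gnas (47.4) and H19-Igf2 (40.5). Its DN count per Mb, 13.6, was also below others, such as 30.4 at H19-Igf2. Kcnq1 encodes a potassium channel subunit, and Kcnq1ot1 is the paternally expressed antisense RNA that starts within it and silences its neighbours. Of the domain's 26 places 7 were called in all 5 lists. They lay on both sides of the interval described below, and they included a place in an intron of Kcnq1. At the Tssc4 end, chr7:150280285-150281547 ranked at 73.7% and 89.1% for CTCF and at 63.5%, 83.5% and 77.4% for Rad21. An intron of Kcnq1 held chr7:150339208-150340425, at 77.0% and 85.0% for CTCF and 89.0%, 61.0% and 91.0% for Rad21. At the other end, upstream of Cdkn1c, which encodes a cyclin-dependent kinase inhibitor, chr7:150651628-150652919 ranked at 76.0% and 86.1% for CTCF. Its Rad21 ranks were 89.3% in pre-B, 72.1% in DN and 97.9% in DP cells, the highest DP Rad21 rank of the domain. Next to it, chr7:150655632-150656572 had the domain's highest pre-B CTCF rank, 88.3%, and was also in all 5 lists.

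Between the place in the Kcnq1 intron and those upstream of Cdkn1c lay 309 kb, chr7:150340312-150649615, with no pre-B CTCF peak. An almost equal interval had no pre-B and no DN Rad21 peak. Of all genes, 83.6% had a shorter pre-B CTCF peak-free interval around their outermost start. Within it were the start of Kcnq1ot1 and the start of Cdkn1c. IL7-cultured CTCF had 2 weak peaks in it, chr7:150355175-150355428 (21.5%) and chr7:150562782-150562987 (18.8%), and DP Rad21 had the 2 peaks at the Kcnq1ot1 start, chr7:150481275-150481881 and chr7:150481912-150482757. The latter covered the RefSeq promoter of Kcnq1ot1, matched to chr7:150482403-150482702 on the minus strand, which is printed with its CpG dinucleotides in capitals because methylation of these bases sets which copy is transcribed.
Kcnq1ot1: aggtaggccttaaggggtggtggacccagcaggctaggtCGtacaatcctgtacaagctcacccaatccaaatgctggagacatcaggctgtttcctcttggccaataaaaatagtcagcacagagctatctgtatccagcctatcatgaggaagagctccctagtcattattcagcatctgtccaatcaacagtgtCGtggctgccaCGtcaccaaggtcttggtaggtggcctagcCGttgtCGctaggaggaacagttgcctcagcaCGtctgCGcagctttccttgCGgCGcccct
It held 9 CpG in 300 bases, where the median over 32851 RefSeq promoters of that length (build GRCm38) was 7 and 54.2% held fewer.

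The CTCF sites beyond this interval were read for orientation, which in CTCF sites follows the strand of the motif. The study's HOMER de novo consensus for CTCF, searched on both strands with at most 2 mismatches, had its best match on the plus strand in the 3 places upstream of Cdkn1c and Slc22a18 and on the minus strand in the Slc22a18 intron. These 4 are shown with the matched 12 bases in capitals, 5′ to 3′ on the strand of the match.
chr7:150649985-150649996: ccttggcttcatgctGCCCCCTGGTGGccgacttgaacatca
chr7:150652403-150652414: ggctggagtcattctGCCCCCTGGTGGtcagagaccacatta
chr7:150656065-150656076: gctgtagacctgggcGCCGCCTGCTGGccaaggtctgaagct
chr7:150666605-150666616: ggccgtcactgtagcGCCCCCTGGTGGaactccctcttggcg
In the domain as a whole the single best matches were 5 on the plus and 6 on the minus strand, and over all domains they were 25 and 31.

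Over the 117 pre-B CTCF peaks of the domains, 58 held the consensus, or 49.6% (exact 95% interval 40.2 to 59.0), where 48.3% of the whole pre-B CTCF list did. Sequence of the same lengths 2000 bp away held it in 5.98% of cases, against 8.97% for the whole list. Matches at 7 places of the domains are printed with the 12 bases in capitals, to show the core side by side with the bases around it.
Grb10: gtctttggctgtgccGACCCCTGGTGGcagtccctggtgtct
Airn: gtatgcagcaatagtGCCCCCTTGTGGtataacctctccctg
Trappc9: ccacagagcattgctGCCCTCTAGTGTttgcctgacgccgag
Plagl1: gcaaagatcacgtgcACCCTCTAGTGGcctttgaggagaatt
Inpp5f: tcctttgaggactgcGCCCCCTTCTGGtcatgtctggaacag
Meg3: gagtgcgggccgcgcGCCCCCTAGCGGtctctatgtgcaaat
H13: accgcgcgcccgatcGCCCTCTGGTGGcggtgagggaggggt

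The highest-ranking places of the domains are described next. Grb10 encodes an adaptor that restrains insulin receptor signalling, and its intron held chr11:11873170-11874010, at 92.1% and 99.9% for CTCF in pre-B and IL7-cultured cells. For Rad21 this place ranked at 97.8% in pre-B, 99.8% in DN and 89.9% in DP cells. A companion place followed at chr11:11874650-11875571, with 68.9% and 67.3% for CTCF and 83.2%, 77.0% and 88.8% for Rad21. On the side of Ddc, which encodes aromatic amino acid decarboxylase, chr11:11711742-11712517 ranked at 96.7% in pre-B CTCF and was also in all 5 lists.

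The Peg13 domain, made of Trappc9, a trafficking complex subunit gene, and Kcnk9, a potassium channel gene, held 15, 22, 14, 2 and 14 peaks in pre-B CTCF, IL7-cultured CTCF, pre-B, DN and DP Rad21. In a Trappc9 intron, chr15:72852958-72854010 ranked at 94.8% and 87.0% for CTCF. All 3 Rad21 lists placed it near their tops, at 99.2%, 99.4% and 99.4%. Another intronic stretch, chr15:72639281-72641505, ranked at 97.0% and 96.4% for CTCF and 80.2% and 78.9% for pre-B and DP Rad21, without a DN peak. In Kcnk9, chr15:72347137-72348022 was at 91.4% of pre-B CTCF and 99.9% of IL7-cultured CTCF. Its Rad21 ranks were lower, 78.0% in pre-B and 53.5% in DP cells, and DN cells had none.

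Zrsr1, a splicing factor retrogene inside Commd1, had no peak within 2 kb of its own start in any list. Its host Commd1, known for copper handling, carried 1 of the strongest Rad21 places, chr11:22856408-22857425 at an annotated start, with 96.7% and 85.2% for CTCF and 99.8%, 90.6% and 99.2% for Rad21. Its pre-B and DP Rad21 peaks, 14 each, outnumbered its 11 pre-B CTCF peaks, as they also did at Inpp5f with 5 and 4 against 2. A further place lay in an intron of Ppp1r9a, which encodes neurabin, with chr6:5060185-5060859 at 98.3% and 94.1% for CTCF and 97.4%, 97.4% and 80.5% for Rad21. The Plagl1 place, chr10:12806940-12807657, lay just outside the control window, at -2840 bp from the nearest start of this zinc finger gene. It ranked at 93.1% and 93.4% for CTCF and 96.0%, 70.1% and 76.8% for Rad21.

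The Mcts2-H13 domain was the densest, at 88.4 pre-B CTCF peaks per Mb. Mcts2 is a retrogene inside H13, which encodes a signal peptide peptidase. The start of H13 held the highest pre-B CTCF rank of any domain peak, 99.0% at chr2:152494620-152495480, while the Rad21 ranks there were 66.5% in pre-B and 40.8% in DP cells, with no DN peak. DN Rad21 instead joined at chr2:152496601-152497949 and chr2:152522180-152523274, the places of the domain in all 5 lists. In the latter, ranks were 85.4% and 94.2% for CTCF and 92.5%, 57.8% and 88.5% for Rad21. Nnat, a neuronal proteolipid gene inside Blcap, had its higher place at the Blcap start, chr2:157397081-157397929, at 75.5% and 83.5% for CTCF and 92.1%, 85.9% and 93.0% for Rad21.

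The Dlk1-Dio3 domain had 6 pre-B CTCF, 12 IL7-cultured CTCF, 5 pre-B, 1 DN and 3 DP Rad21 peaks. Its members include Dlk1, a Notch-related transmembrane protein, the maternally expressed RNAs Meg3, Rian and Mirg, and Dio3, which inactivates thyroid hormone. At the Meg3 start, chr12:110780873-110781659 ranked at 78.5% and 82.5% for CTCF and 78.8% and 73.6% for pre-B and DP Rad21. Upstream of Dlk1, chr12:110675682-110676610 was called in all 5 lists, with its highest rank, 94.6%, in DP Rad21. Rian had a place in 4 lists, chr12:110847117-110847852, whose pre-B Rad21 rank was 85.5%. Dio3 had no peak in its window in any list.

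The Nap1l5, Mest, Peg3 and Snrpn-Ube3a domains had no DN Rad21 peak, and so no place in all 5 lists. Nap1l5, a nucleosome assembly family retrogene inside Herc3, had no peak within 2 kb of its start, and the place with the domain's highest CTCF ranks was at the Herc3 start, chr6:58782351-58783061, at 37.8% and 60.2% for CTCF and 10.2% and 36.0% for pre-B and DP Rad21. The highest Rad21 ranks of the domain lay elsewhere, at 15.7% in pre-B cells (chr6:58871511-58872183) and 36.5% in DP cells (chr6:58794101-58794796). Mest, of the hydrolase fold family, and the coatomer gene Copg2 shared 1 pre-B CTCF peak and had no pre-B or DN Rad21 peak. Peg3 and Zim1, both zinc finger genes, and Usp29, a ubiquitin protease gene, shared 2 pre-B CTCF peaks, 5 IL7-cultured CTCF peaks and 1 pre-B Rad21 peak, with none in thymocytes. Their highest place, chr7:6893205-6894004 upstream of Usp29, ranked at 47.1% and 79.2% for CTCF and 20.6% for pre-B Rad21. In the Prader-Willi and Angelman region, the starts of Snrpn, a splicing protein gene, and of Ndn, which encodes necdin, lay in long intervals without a pre-B CTCF peak. The interval around the Snrpn start without a pre-B CTCF peak, chr7:66501261-67531660, measured 1030 kb, and that around Ndn and Magel2, chr7:67873786-69527165, measured 1653 kb. Of all genes, 93.1% and 95.7% had shorter ones. The latter interval ended close to Magel2, at a place 5301 bp downstream of its start, chr7:69527166-69527800, which 4 lists shared. In the IL7-cultured list the intervals of Snrpn, Ndn and Magel2 measured 237.7, 147.7 and 6.49 kb. Over the 52 placed starts, the median pre-B CTCF interval was 89.7 kb against 51.4 kb for all genes, while in the IL7-cultured list it was 17.5 kb against 28.2 kb. Ube3a, a ubiquitin ligase gene, had a peak at its start in 4 lists, chr7:66483471-66484630, at 72.2% and 62.5% for CTCF and 50.5% and 75.1% for pre-B and DP Rad21. Mkrn3, a ring finger gene, had 3 pre-B and 4 IL7-cultured CTCF peaks and no Rad21 peak in any list. The highest of them, chr7:69544948-69545392, ranked at 97.5% in the IL7-cultured list and 56.5% in pre-B cells.

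Rasgrf1, a Ras exchange factor gene, had 5 CTCF places in both B-lineage lists and 4 pre-B Rad21 peaks, and no Rad21 peak in either thymocyte list. The CTCF ranks ran from 23.8% to 59.4% in pre-B cells, and the Rad21 ranks from 14.4% to 41.5%. The pre-B Rad21 peaks at Rasgrf1 thus all lay below the middle of their list.

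At the starts of member genes, the counts stood near those of all genes. A peak within 1 kb of an annotated start was found for 15 of 52 genes in the pre-B CTCF list, where 25.6% of all genes had one, and for 23 in the IL7-cultured list against 36.8%. For Rad21 the counts were 10 in pre-B cells against 19.9%, 3 in DN cells against 4.48% and 19 in DP cells against 31.3%. As a share, the pre-B CTCF count was 28.8% with an exact 95% interval from 17.1 to 43.1. Blcap, Commd1 and Gnas were the 3 of 52 with a start peak in all 5 lists, as 3.99% of all genes had. Those of Asb4, Herc3, Meg3, Ube3a and H13 were in 4 lists, all but DN, where 8.82% of all genes had a start peak in 4 lists. Herc3 encodes a ubiquitin ligase and Asb4 a SOCS box protein. The Asb4 start had a place at chr6:5332328-5333177 with 69.9% and 90.3% for CTCF and 87.0% and 77.0% for pre-B and DP Rad21. The remaining start peaks were called in fewer lists and mostly ranked low. Ascl2, a transcription factor gene, had ranks of 17.3% and 29.7% for CTCF and 9.46% for DP Rad21. At Tssc4 the IL7-cultured CTCF and pre-B Rad21 ranks were 14.7% and 14.1%. The upstream start of Inpp5f had a low IL7-cultured CTCF peak and ranks of 10.3% and 35.8% in pre-B and DP Rad21. In the IL7-cultured list alone, the starts of Peg12, Magel2, Zim1 and Ppp1r9a ranked at 61.1%, 44.0%, 42.4% and 8.41%. At Copg2 an IL7-cultured CTCF peak of 53.0% and a DP Rad21 peak of 11.7% lay side by side, and an internal Igf2r start had a pre-B CTCF peak of 11.8%.

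Counting all windows, 26 of 51 members had a peak in all 5 lists, where 37.5% of all genes did. Members of a domain share peaks where their windows overlap. A further 7 had one in 4 lists, 8 in 3, 3 in 2 and 5 in 1, against 24.5%, 9.42%, 6.70% and 7.63% of all genes. None was found for 2 members, against 14.2%. The 2 without were Dio3 and Ndn. Those with a peak in 1 list were Peg3, Slc22a2, Snrpn and Peg12 in IL7-cultured CTCF and Impact in DP Rad21.

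The lists were then merged, giving 218 places in the domains. Of these, 33 were called in all 5 lists, or 15.1%, where 10.3% of places over the genome were. A further 26 were in 4 lists, 28 in 3, 39 in 2 and 92 in 1. The 92 made up 42.2% of places, against 45.2% over the genome. Of them, 59 were CTCF peaks of the IL7-cultured list, or 27.1% of places against 30.1%, and 24 were DP Rad21 peaks, which over the genome were 12.3% of places.

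Between the CTCF lists, 111 of the 117 pre-B peaks overlapped a peak of IL7-cultured pro-B cells, or 94.9% (exact 95% interval 89.2 to 98.1), against 96% of the whole list. The 6 that did not had a median rank of 11.5% and none was above 16.3%. In the other direction 115 of 186, or 61.8% (54.4 to 68.8), overlapped a pre-B peak, against 58.6%. The 71 others had a median rank of 21.8%, where the like peaks of the whole list had one of 23.8%. Far above that median was an intronic peak of Slc22a3, an organic cation transporter gene, at chr17:12697106-12697691. It ranked at 99.3% of the IL7-cultured list and no other list had a peak there. It was singled out after its value was seen.

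In pre-B cells, 81 of 117 CTCF peaks carried Rad21, or 69.2% (60.0 to 77.4), against 63.5% of the whole list. Those with Rad21 had a median rank of 68.4% and those without one of 15.2%. Of the 93 pre-B Rad21 peaks 79 overlapped CTCF, or 84.9% (76.0 to 91.5), against 88.1%. All these intervals held the share of the whole list, so no difference between imprinted domains and the genome was detectable at this number of peaks.

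**Figure D5:**
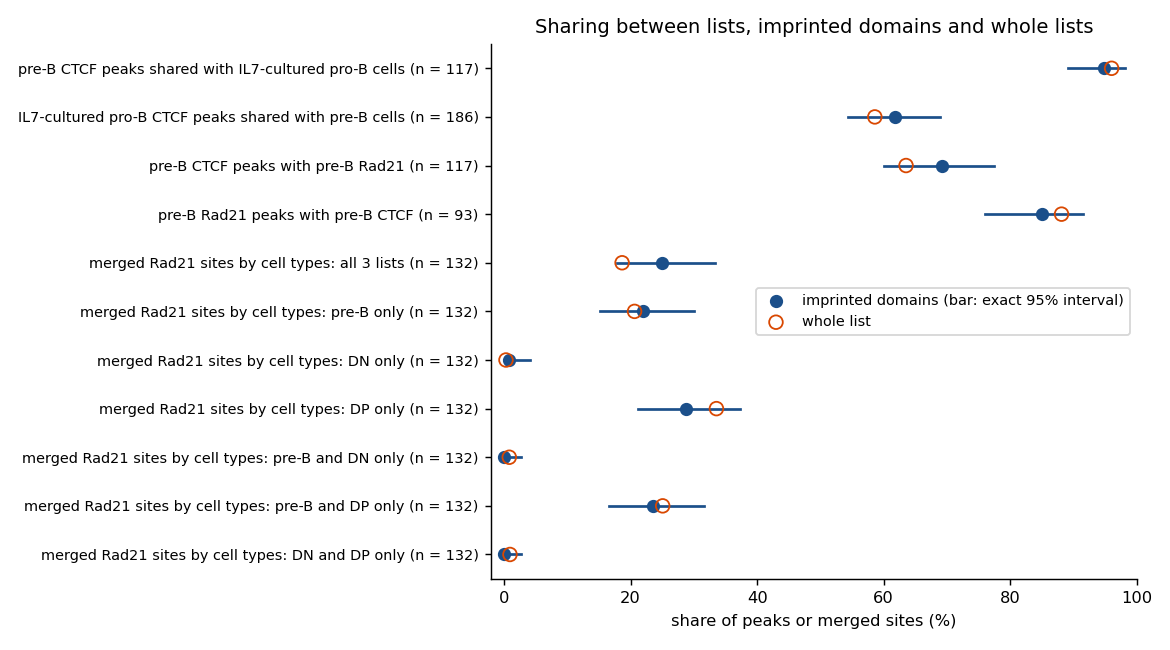
Shares of peaks or merged Rad21 sites (x axis, percent) in the imprinted domains (filled points with exact 95% intervals) and in the whole lists (open rings), for each kind of sharing (rows, with the number of domain peaks or sites). Each ring lies within its interval.

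The 3 Rad21 lists gave 132 merged sites in the domains. Of these 33 were in all 3 cell types, or 25.0% (17.9 to 33.3), against 18.7% over the genome. Pre-B cells alone had 29, or 22.0% (15.2 to 30.0), against 20.6%, and DP cells alone had 38, or 28.8% (21.2 to 37.3), against 33.6%. Pre-B and DP cells shared 31 without DN cells, or 23.5% (16.5 to 31.6), against 25.1%. DN cells alone had 1, or 0.758%, against 0.31%. No site was shared by pre-B and DN cells alone or by DN and DP cells alone, where the genome had 0.831% and 0.94% and a count of 0 in 132 allows up to 2.27% by the limit of 3 counts and 2.76% by the exact interval. The sites in all 3 cell types ranked high, with a median of 86.7% in the pre-B and 85.3% in the DP list. Those of pre-B or DP cells alone had medians of 19.1% and 28.8%. In the lists at large the same classes had medians of 82.1% and 84.6% for sites of all 3 cell types and of 26.6% and 31.5% for those of 1. The DN list was the shortest, so the lists were also limited to its length. The domains then held 38 pre-B, 33 DN and 34 DP Rad21 peaks, with 4, 7 and 5 in the Kcnq1 domain and 3, 3 and 1 in H19-Igf2, and 40.4% of the merged sites were in all 3 cell types, against 33.2% over the genome.

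The Igf2r-Airn domain held the most DP Rad21 peaks by count, 15 against 14 in each of Kcnq1, Zrsr1 and Peg13. Per Mb it held 34.9, below Mcts2-H13 (75.7), Zrsr1 (74.6) and H19-Igf2 (40.5). Igf2r, the receptor that clears Igf2, and Airn, the paternally expressed antisense RNA that starts within it, had 15 DP Rad21 peaks in their domain against 5 in pre-B and 3 in DN cells. Within the Airn window alone the counts were 10, 1 and 1. At the start of Airn, chr17:12934057-12934817, DP Rad21 ranked at 41.1% and IL7-cultured CTCF at 38.2%. DP Rad21 had further peaks just downstream at chr17:12934935-12935607 (51.8%) and chr17:12938561-12939077 (57.2%). The Igf2r start held another, chr17:12962295-12962915 (53.6%). No other list had a peak at these last 3. Limited to equal list length, the domain had 1 pre-B, 3 DN and 3 DP Rad21 peaks, with DP peaks kept above 73.6% of their list. An intron of Igf2r held a different kind of place, chr17:12906865-12907730, where DP Rad21 ranked at 93.3%, pre-B Rad21 at 58.8% and pre-B CTCF at 16.3%. The Airn body also held chr17:13002970-13003822, in all 5 lists, at 84.8% and 90.2% for CTCF and 91.8%, 96.8% and 96.7% for Rad21. The sole DN-only Rad21 site of the domains lay in an Igf2r intron, chr17:12882238-12883020, at 48.8% of the DN list, and both CTCF lists had a peak there.

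Other DP-only Rad21 sites above the middle of the DP list lay in introns and starts. They included Ppp1r9a at chr6:4873755-4874390 (71.1%), Asb4 at chr6:5363336-5363672 (59.1%), Trappc9 at chr15:72759088-72759751 (81.7%) and the Trappc9 start at chr15:72891386-72892052 (56.8%). An interval near Tssc4, chr7:150238705-150239594, ranked at 63.5% in DP Rad21 and 16.9% in pre-B CTCF. In the Airn body, chr17:12992108-12992552 reached 66.8%. Pre-B-only Rad21 sites above the middle of the pre-B list included Trappc9 at chr15:72865059-72865555 (73.4%) and chr15:72698420-72699128 (58.0%), Ddc at chr11:11744030-11744836 (61.2%), Kcnq1 at chr7:150336934-150337707 (54.7%) and the place upstream of Dlk1 at chr12:110674271-110675030 (67.6%).

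Rad21 without CTCF was looked at last. In DP cells, 27 of 103 Rad21 peaks overlapped no CTCF peak of either B-lineage list, or 26.2% against 30.8% of the DP list. Of the 27, 8 lay within 1 kb of an annotated start, or 29.6% against 30.3% of such peaks in the DP list. Of the 76 with CTCF, 23 did, or 30.3% against 22.1%. In pre-B cells 9 of 93 Rad21 peaks lacked CTCF, or 9.68% against 7.62% of the list, and 3 of the 9 lay at a start, against 34.5% in the list. All 33 DN Rad21 peaks overlapped B-lineage CTCF, as did 98.4% of the DN list. Since CTCF was analysed in B-lineage cells alone, a thymocyte CTCF site cannot be told apart from Rad21 without CTCF.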

How the data were processed

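The 5 deposited peak lists hold a score for each peak, written by the authors' run of MACS from the p-value, which grows with depth and was used only as a rank within a list. Per the labels and methods, reads were aligned with Bowtie to mm9 (2 mismatches, up to 3 places, so repeated sequence can share reads) and confident peaks were called with MACS 1.4.2 against the input of the same cells at a false discovery rate of 1%. The labels name Bowtie 0.12.9 and the methods another version. Read depths were not given in the sources used here, and the 4 inputs have no list.

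Windows came from GENCODE vM1 on NCBIM37, the assembly of mm9, and 0 of 190262 peaks lay outside it. Genes in the background are annotated protein-coding, lincRNA and processed-transcript genes. Control windows were set from textbook positions. Each condition is 1 sample. Where a share carries a 95% interval it is Clopper-Pearson, which is exact but covers counting error alone. Shares printed without an interval are subject to the same error. The shares stand beside those of the whole list, of all genes or of all places. Overlap meant at least 1 bp. The CTCF consensus was the study's HOMER de novo motif of 12 bases. Single peaks were named where they overlapped a control window or a member's start, topped their domain, or were Rad21 sites of 1 list above 50% of that list, and the other places and peaks named and the H19 word were added after their values were seen. The domains, members and lists were chosen with earlier results of these data known. Functions for overlap, merging, ranks and motif search were tested on simulated data. Python 3.11.15, numpy 2.4.6, scipy 1.17.1 and pysam 0.24.0 were used.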

Additional observations from a re-analysis of the deposited data

How the results depend on the processing

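No paired analysis was possible because each condition has 1 library. Of 122 values recomputed under other settings, 98 stayed within counting error or, for counts, within a looser limit. Counts within that limit still shifted. With scores of at least 100 the 186 IL7-cultured CTCF peaks became 141. In gene bodies alone the 103 DP Rad21 peaks became 74, and with 50 kb either side the 117 pre-B CTCF peaks became 153. The values that moved further follow. With lists of equal length within an antibody, the domains held 121 CTCF peaks of IL7-cultured cells and 38 pre-B and 34 DP Rad21 peaks. Under that setting the median rank of IL7-cultured peaks was 47.1%, sharing was 85.5% of pre-B CTCF peaks with IL7-cultured cells (84.8% over the genome) and 83.5% the other way (85.5%), 40.4% of Rad21 sites were in all 3 lists and 9.62% in DP alone (33.2% and 15.6% over the genome), start peaks fell to 4 members in pre-B and 5 in DP Rad21, and control windows with a peak to 6, 2 and 2 in IL7-cultured CTCF, pre-B and DP Rad21. With the pre-B CTCF and Rad21 lists limited to the length of the shorter, 87.2% of pre-B CTCF peaks carried Rad21 (78.9% over the genome). With scores of at least 100, 97.0% of pre-B Rad21 peaks carried CTCF (93.2% over the genome), 14.1% of Rad21 sites were pre-B alone (22.3%) and 6 members had a pre-B Rad21 start peak. Gene bodies alone held 73 and 117 pre-B and IL7-cultured CTCF peaks and 61 and 17 pre-B and DN Rad21 peaks, with 16.8% of Rad21 sites in all 3 lists (18.7% over the genome). In gene bodies DP cells alone had 35.8% of Rad21 sites (33.6%). The domains' side of the genome share turned round in the shares given above with a genome value, except for the 87.2%, 40.4% and 9.62%. It also turned round for pre-B CTCF peaks shared with IL7-cultured cells when 50% of the peak had to overlap. That share was 89.7% against 87.5% over the genome. Within 2500 bp of a start, 8 of 52 members had a DN Rad21 peak, against 7.37% of all genes. With at most 1 mismatch 19.7% of pre-B CTCF peaks held the consensus against 16.1% of the list, and a 20-base matrix, added after seeing the data, gave 55.6% against 61.3% of the whole list, which turned round the order of 49.6% and 48.3%. Depth is not known for these lists, so an absent peak is below a list's own threshold, not shown to be unbound.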
